A study of Mus musculus with 8 samples.

Results

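The genes described here encode the mouse MHC class I molecules and the machinery that supplies them: the classical heavy chains H2-K1 and H2-D1, the Qa heavy chains H2-Q4, H2-Q6 and H2-Q7, the T-region heavy chains H2-T22 and H2-T23, the light chain B2m, the peptide transporter chain Tap1, and Nlrc5, the class I transactivator. They were taken by gene symbol, which gave 10 of the 52997 symbols in the count table, and all 10 were among the 11490 genes with enough counts to be compared. They were chosen on their counts in these 8 libraries, with the differences between groups known. The differences given for them are therefore descriptions, and their p-values are not printed. Counts of how many of them passed a threshold are descriptions too and give no independent evidence. The libraries came from liver CD4+ T cells of C57BL/6 mice that lacked Aire, the transcriptional regulator by which the thymus displays tissue antigens to developing T cells, and carried a GFP reporter of Foxp3. The cells were live, CD45+ and TCRb+ and negative for the reporter, so regulatory T cells were left out, and they were divided by surface PD-1, an inhibitory receptor of activated T cells. The 4 groups were PD-1+ cells at 10 days of age, PD-1- cells at 10 days, PD-1+ cells at 5 days and PD-1- cells at 5 days, with 2 libraries of 1000 sorted cells each. Every group lacked Aire, and no mice with Aire were compared.

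MHC class I molecules are present on nearly all nucleated cells. A heavy chain pairs with B2m in the endoplasmic reticulum, is loaded with a peptide that the Tap1 and Tap2 transporter brings in, and carries it to the surface, where CD8 T cells and natural killer cell receptors read it. Nlrc5 moves to the nucleus and acts on class I promoters through a DNA-bound assembly of RFX, NF-Y and CREB family proteins, and interferons raise the transcription of Nlrc5, the heavy chains, B2m and Tap1. T cells carry abundant class I, and Nlrc5 is known for its part in their class I expression.

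The class I heavy chain genes share much of their sequence, upstream of the gene as well as within it. The 250 bases before the RefSeq start of 4 genes on chromosome 17 (GRCm38.p6) are given because H2-Q6 and H2-Q7 had the largest differences among the 10 genes and H2-K1 and H2-D1 are the classical pair. The stretches lie at chr17:35424600-35424849 on the plus strand for H2-Q6, chr17:35438905-35439154 on the plus strand for H2-Q7, chr17:34000348-34000597 on the minus strand for H2-K1 and chr17:35262844-35263093 on the plus strand for H2-D1. By GENCODE M21, in which H2-D1 starts at base 35262730, the H2-D1 stretch lies within the gene. Each stretch is written 5′ to 3′ on the strand of its gene. Capitals mark the runs of at least 10 bases that all 4 share and, on either strand, TGACG, the core of a CREB family site, and CCAAT, the box bound by NF-Y.
H2-Q6: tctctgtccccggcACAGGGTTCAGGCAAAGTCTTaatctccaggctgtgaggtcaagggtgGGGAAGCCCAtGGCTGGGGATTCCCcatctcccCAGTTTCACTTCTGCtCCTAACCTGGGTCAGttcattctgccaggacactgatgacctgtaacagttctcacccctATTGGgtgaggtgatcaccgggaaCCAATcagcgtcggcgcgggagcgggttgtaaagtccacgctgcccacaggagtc
H2-Q7: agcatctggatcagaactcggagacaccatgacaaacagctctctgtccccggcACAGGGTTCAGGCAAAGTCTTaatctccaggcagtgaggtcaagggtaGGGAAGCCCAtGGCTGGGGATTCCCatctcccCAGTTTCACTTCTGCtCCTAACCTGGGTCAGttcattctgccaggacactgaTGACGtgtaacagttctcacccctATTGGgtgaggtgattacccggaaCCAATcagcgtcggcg
H2-K1: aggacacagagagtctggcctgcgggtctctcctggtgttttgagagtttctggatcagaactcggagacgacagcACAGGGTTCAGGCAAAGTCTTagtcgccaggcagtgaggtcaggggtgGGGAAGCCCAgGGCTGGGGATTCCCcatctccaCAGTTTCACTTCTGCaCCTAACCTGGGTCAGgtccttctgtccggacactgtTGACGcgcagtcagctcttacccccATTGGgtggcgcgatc
H2-D1: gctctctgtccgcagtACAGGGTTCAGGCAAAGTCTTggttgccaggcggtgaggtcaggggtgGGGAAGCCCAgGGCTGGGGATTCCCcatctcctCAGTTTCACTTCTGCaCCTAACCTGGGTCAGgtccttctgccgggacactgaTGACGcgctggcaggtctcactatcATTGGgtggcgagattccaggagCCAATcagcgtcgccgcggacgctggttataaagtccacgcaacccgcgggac
All 4 stretches shared 5 runs, in the same order: ACAGGGTTCAGGCAAAGTCTT, GGGAAGCCCA, GGCTGGGGATTCCC, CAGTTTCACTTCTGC and CCTAACCTGGGTCAG. The third lies where class I promoters carry an NF-kB type site and the fourth where they carry an interferon-response box. Upstream stretches were found for 9 of the 10 genes, all but Nlrc5. The runs were defined as what the 4 printed stretches share. Finding each run in all 4 was thus fixed in advance and does not test for a binding site. The run GGCTGGGGATTCCC was found, on either strand, in 0.0148% of 27025 mouse promoter stretches of this length, which were the 4 printed. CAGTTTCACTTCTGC was found in 0.0222% of them, 5 being class I genes of the 9, the 4 printed and H2-Q4. TGACG was present in 7 of the 9 and in 17.9% of all stretches, and was not found upstream of H2-Q6 and H2-T23. Matches were counted anywhere in a stretch, so the site need not be the same in each gene. In H2-Q4 it lay between the CCAAT matches, and in H2-Q7 and H2-D1 before them. CCAAT was present in 9 of the 9 and in 34.5% of all stretches. The H2-Q6 and H2-Q7 stretches were identical at 97.6% of 210 aligned bases, with 5 mismatches, and those of H2-K1 and H2-D1 at 87.4% of 190.

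Library totals ranged from 1473216 to 3019551 counts. Levels are CPM, counts scaled by library size and composition, differences are log2 differences ± standard error from edgeR, and a gene is called where its edgeR p-value, adjusted over all 11490 genes, was under 0.05. Pdcd1, the gene of PD-1, had 1953 and 1420 counts in the 10-day PD-1+ libraries, 4 and 3 in the 10-day PD-1- libraries, 615 and 564 in the 5-day PD-1+ libraries and 5 and 1 in the 5-day PD-1- libraries, so the sort labels held. Both 5-day replicate 3 libraries were male by Xist and Y-linked genes and the other 6 were female. The 5-day replicates thus came from different mice. The labels do not say whether the 10-day replicates did, so their spread may be technical. The 10 genes together took 2.55 and 2.16% of all counts in the 10-day PD-1+ libraries, 1.12 and 1.13% in the 10-day PD-1- libraries, 1.26 and 1.06% in the 5-day PD-1+ libraries and 1.36 and 1.21% in the 5-day PD-1- libraries. In bulk libraries, more cells that express a gene and more of its RNA per cell cannot be told apart.

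At 10 days all 10 genes were higher in PD-1+ cells than in PD-1- cells, by log2 differences of 0.78 to 4.12 with a median of 1.14. All 10 were called higher there. Of all tested genes 29.3% were called, 16.4% higher and 12.9% lower, with a median difference of 0.01. At 5 days the median over the 10 genes was -0.21. There 1 was called higher (H2-D1), 2 were called lower (H2-Q7 and H2-T23) and 7 were not called, where 34.3% of all tested genes were called, 17.6% higher and 16.7% lower. With library totals in place of composition factors, which shifted the median of all genes at 5 days to -0.26, the 5-day count was 0 higher and 5 lower. In all 1 was called without 5-day PD-1+ replicate 2, 1 without 5-day PD-1+ replicate 3, 1 without 5-day PD-1- replicate 2 and 5 without 5-day PD-1- replicate 3. With each library left out in turn, H2-D1 kept its 5-day call in 7 of 8 fits, H2-T23 in 6 and H2-Q7 in 5. Of the 10 genes, 7 had both 10-day PD-1+ libraries above the other 6, an arrangement that 11.5% of all tested genes showed, and none had both below, as 7.08% of all tested genes did. The exceptions were H2-T23, Tap1 and Nlrc5, for which the 5-day PD-1- replicate 2 library was above at least 1 of the 10-day PD-1+ libraries. At 10 days, 8 of the 10 were still called without PD-1+ replicate 1 or without either PD-1- replicate.

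**Figure D1:**
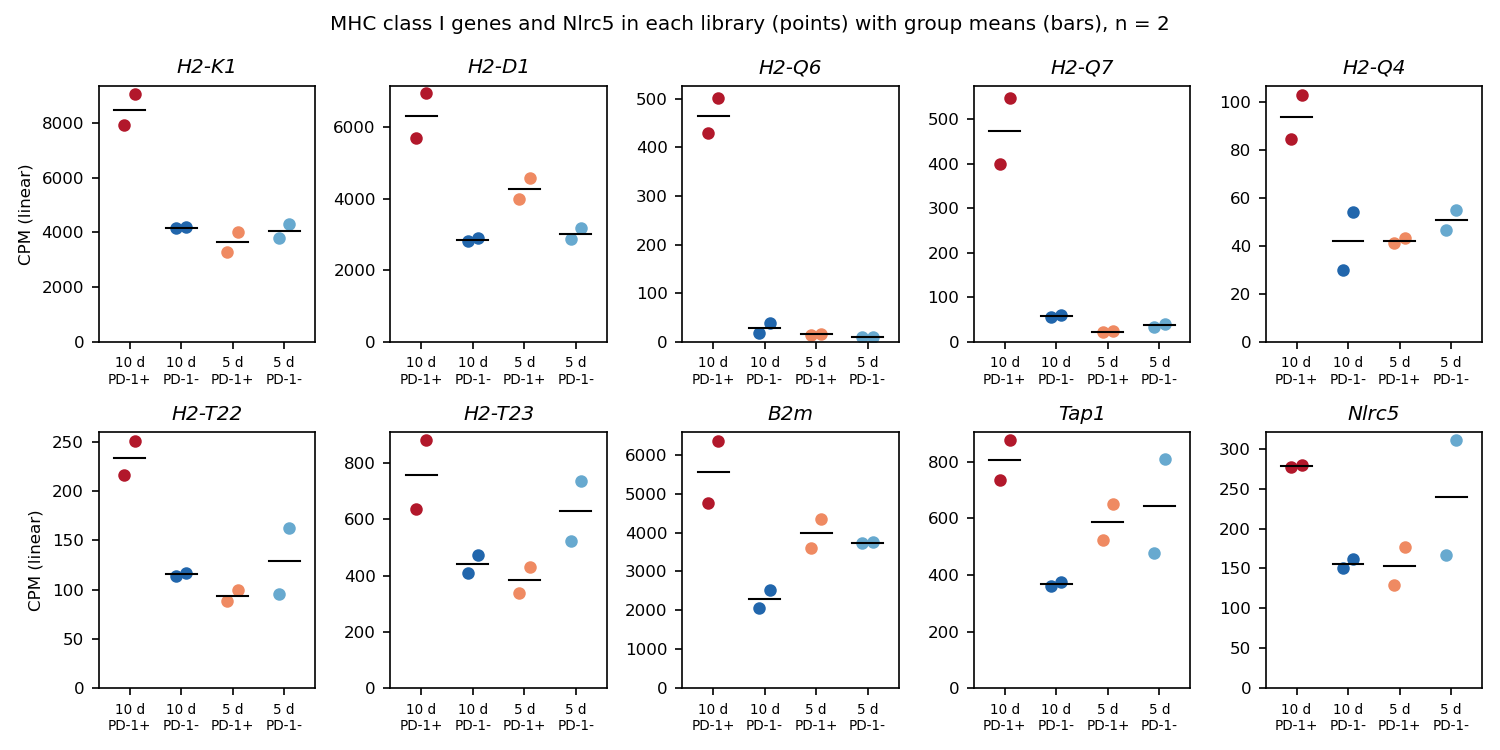
CPM (y axis, linear) of the 10 genes in each of the 8 libraries (points) with the group mean (bar, n = 2 libraries), with the groups along the x axis (PD-1+ and PD-1- cells at 10 days, then at 5 days). H2-Q6 and H2-Q7 stand between 399 and 548 CPM in the 10-day PD-1+ libraries and between 9.40 and 59.2 CPM in the other 6.

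H2-Q6 and H2-Q7 lie next to each other in the Qa region. H2-Q7 encodes Qa-2, a class I molecule held in the membrane by a lipid anchor, and H2-Q6 is its close relative. H2-Q6 had 501 and 429 CPM in the 10-day PD-1+ libraries, 18.5 and 37.7 CPM in the 10-day PD-1- libraries, 14.4 and 15.8 CPM in the 5-day PD-1+ libraries and 9.40 and 10.8 CPM in the 5-day PD-1- libraries. Both 10-day PD-1+ libraries stood far above the other 6, and the lowest 2 were the 5-day PD-1- libraries. The log2 difference between PD-1+ and PD-1- cells was 4.12 ± 0.26 at 10 days (17.4-fold) and 0.60 ± 0.34 at 5 days. Between 10-day and 5-day PD-1+ cells it was 4.94 ± 0.28 (30.7-fold), which ranked 21 from the top of the 11490 genes. In PD-1- cells H2-Q6 was also higher at 10 than at 5 days, by 1.42 ± 0.31, without being called.

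H2-Q7 had 548 and 399 CPM in the 10-day PD-1+ libraries, 56.3 and 59.2 CPM in the 10-day PD-1- libraries, 23.7 and 22.4 CPM in the 5-day PD-1+ libraries and 40.8 and 32.9 CPM in the 5-day PD-1- libraries. Its lowest libraries were thus the 5-day PD-1+ ones, and no 2 groups overlapped. At 10 days PD-1+ cells were higher than PD-1- cells by 3.04 ± 0.20 (8.21-fold), and at 5 days they were lower, by -0.69 ± 0.22. PD-1+ cells at 10 days exceeded PD-1+ cells at 5 days by 4.36 ± 0.22 (20.5-fold), rank 37 from the top. H2-Q4, which encodes the Qa-region molecule Qb-1, moved less: it had 103 and 84.7 CPM in the 10-day PD-1+ libraries, 29.8 and 54.0 CPM in the 10-day PD-1- libraries, 43.2 and 41.1 CPM in the 5-day PD-1+ libraries and 46.7 and 55.1 CPM in the 5-day PD-1- libraries. Only the 10-day PD-1+ libraries stood apart for H2-Q4, with a difference between PD-1+ and PD-1- cells of 1.20 ± 0.27 at 10 days and -0.26 ± 0.28 at 5 days.

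Reads of 25 bases can fall on several class I genes. Of the 25-base words in the GENCODE M21 transcripts, 40.0% were found in no other gene for H2-Q6, 53.4% for H2-Q7 and 39.7% for H2-Q4. The reads were paired, and these are shares of single words. What share of read pairs can be placed was not tested. H2-Q6 shared 30.6% of its words with H2-Q4, 20.4% with H2-Q7 and 15.3% with H2-Q5, and H2-Q7 shared 27.4% with H2-Q10 and 18.5% with H2-Q5. The related Qa genes H2-Q8 and H2-Q9 have no row in the table used here. How featureCounts treated reads with several matches is not given in the sources used here. Counts may have been split among these genes or lost. With the counts of H2-Q6 and H2-Q7 added into 1 row, the difference between PD-1+ and PD-1- cells was 3.46 ± 0.18 at 10 days and -0.31 ± 0.20 at 5 days, and that between 10-day and 5-day PD-1+ cells was 4.62 ± 0.20. The word shares were higher for H2-K1 (68.3%), H2-D1 (63.7%), H2-T23 (69.5%), Tap1 (95.1%), Nlrc5 (99.3%) and B2m (100%), and lowest for H2-T22 (28.0%), which shared 53.2% of its words with H2-T10.

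The balance between H2-Q6 and H2-Q7 also differed between libraries. H2-Q6 made up 47.8 and 51.8% of their joint counts in the 10-day PD-1+ libraries, with exact 95% binomial intervals of 46.0 to 49.6% and 49.8 to 53.8%. It made up 24.7 and 38.9% in the 10-day PD-1- libraries, with intervals of 19.3 to 30.8% and 31.1 to 47.2%. The share was 37.8 and 41.3% in the 5-day PD-1+ libraries, with intervals of 26.8 to 49.9% and 30.4 to 52.8%, and 18.7 and 24.7% in the 5-day PD-1- libraries, with intervals of 12.9 to 25.8% and 15.6 to 35.8%. At each age both PD-1+ libraries had the higher share, although the intervals of some PD-1+ and PD-1- libraries overlapped at each age. These intervals cover counting error alone.

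**Figure D2:**
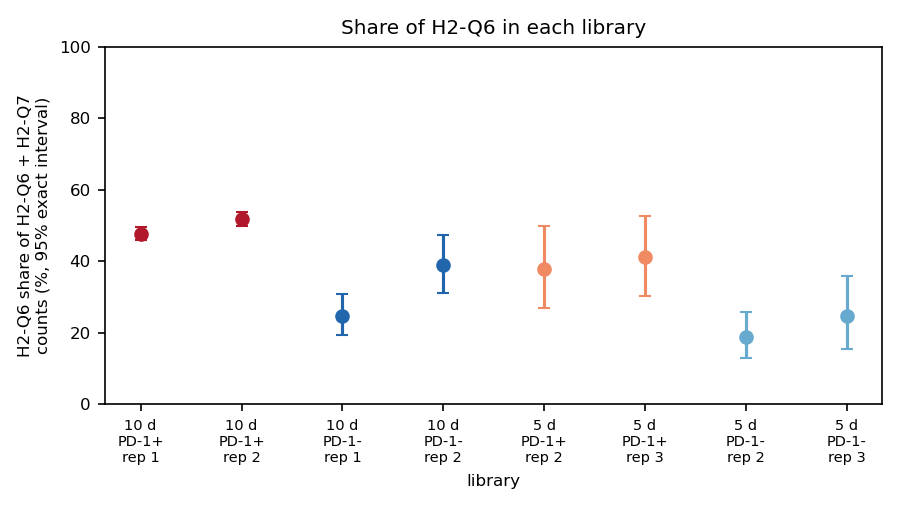
Share of H2-Q6 in the joint counts of H2-Q6 and H2-Q7 (y axis, percent) in each library along the x axis, with exact 95% binomial intervals (bars). The 10-day PD-1+ libraries are at 47.8 and 51.8%, and the intervals are wider in the other 6 libraries, where the joint counts were 74 to 231.

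H2-K1 and H2-D1 encode the classical molecules that present peptides to most CD8 T cells. H2-K1 had 9063 and 7920 CPM in the 10-day PD-1+ libraries, 4173 and 4180 CPM in the 10-day PD-1- libraries, 4012 and 3270 CPM in the 5-day PD-1+ libraries and 4291 and 3804 CPM in the 5-day PD-1- libraries. The 10-day PD-1+ libraries stood apart, and the other 6 lay between 3270 and 4291 CPM. The 10-day PD-1+ cells were 1.02 ± 0.13 above 10-day PD-1- cells (2.03-fold) and 1.22 ± 0.13 above 5-day PD-1+ cells on the log2 scale. At 5 days the PD-1 difference was -0.15 ± 0.13. H2-D1 had 6943 and 5689 CPM in the 10-day PD-1+ libraries, 2817 and 2898 CPM in the 10-day PD-1- libraries, 4574 and 3977 CPM in the 5-day PD-1+ libraries and 3170 and 2882 CPM in the 5-day PD-1- libraries. Unlike H2-K1, H2-D1 was already higher in both PD-1+ libraries at 5 days, by 0.50 ± 0.13, and by 1.14 ± 0.13 at 10 days. The 5-day call of H2-D1 was lost without both replicate 3 libraries.

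H2-T23 encodes Qa-1, which presents leader peptides of other class I molecules to the CD94/NKG2A receptor. It had 880 and 636 CPM in the 10-day PD-1+ libraries, 473 and 410 CPM in the 10-day PD-1- libraries, 429 and 338 CPM in the 5-day PD-1+ libraries and 737 and 524 CPM in the 5-day PD-1- libraries. The PD-1 difference changed sign between ages, being 0.78 ± 0.20 at 10 days and -0.72 ± 0.20 at 5 days. H2-T22, whose product is bound by some gamma-delta T cell receptors, had 251 and 216 CPM in the 10-day PD-1+ libraries, 117 and 114 CPM in the 10-day PD-1- libraries, 99.3 and 88.8 CPM in the 5-day PD-1+ libraries and 163 and 96.0 CPM in the 5-day PD-1- libraries. Its PD-1 difference was 1.01 ± 0.21 at 10 days and -0.47 ± 0.21 at 5 days, where the PD-1- replicates lay far apart.

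B2m, the light chain common to all these heavy chains, had 6353 and 4762 CPM in the 10-day PD-1+ libraries, 2050 and 2534 CPM in the 10-day PD-1- libraries, 4359 and 3592 CPM in the 5-day PD-1+ libraries and 3747 and 3722 CPM in the 5-day PD-1- libraries. Here the 10-day PD-1- libraries were the ones at the bottom, below both 5-day groups. The PD-1 difference was 1.28 ± 0.15 at 10 days and 0.09 ± 0.15 at 5 days. B2m was higher at 10 than at 5 days in PD-1+ cells by 0.48 ± 0.15 and lower in PD-1- cells by -0.70 ± 0.15, the second not called. Tap1, a chain of the peptide transporter, showed a like arrangement, with 877 and 734 CPM in the 10-day PD-1+ libraries, 377 and 360 CPM in the 10-day PD-1- libraries, 651 and 525 CPM in the 5-day PD-1+ libraries and 809 and 477 CPM in the 5-day PD-1- libraries. Its PD-1 difference was 1.13 ± 0.22 at 10 days and -0.13 ± 0.22 at 5 days. Tap1 was the only 1 of the 10 not called between 10-day and 5-day PD-1+ cells, at 0.46 ± 0.22.

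Nlrc5 lies on chromosome 8, away from the class I cluster. It had 280 and 277 CPM in the 10-day PD-1+ libraries, 161 and 150 CPM in the 10-day PD-1- libraries, 177 and 129 CPM in the 5-day PD-1+ libraries and 311 and 167 CPM in the 5-day PD-1- libraries. Both 10-day PD-1+ libraries were alike, and the highest library of all was 5-day PD-1- replicate 2. The PD-1 difference of Nlrc5 was 0.83 ± 0.26 at 10 days (1.78-fold) and -0.65 ± 0.26 at 5 days, the second not called. Nlrc5 was higher at 10 than at 5 days in PD-1+ cells by 0.86 ± 0.26 and lower in PD-1- cells by -0.62 ± 0.26. With each library left out in turn, the 10-day PD-1 difference of Nlrc5 ranged from 0.79 to 0.89. Its difference between ages in PD-1+ cells ranged from 0.65 to 1.11. The 10-day call of Nlrc5 was kept in 4 of those 8 fits. Its call between ages in PD-1+ cells was kept in 2 of them.

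Set side by side, the 2 ages gave the 10 genes different PD-1 differences. The age by PD-1 interaction, the 10-day minus the 5-day difference, was above 0 for all 10, from 0.65 for H2-D1 to 3.73 for H2-Q7, with a median of 1.48, where all tested genes had a median of 0.04. It was called for 6 of the 10, where 2.12% of all tested genes were called, 1.2% higher and 0.923% lower. The 6 were H2-Q6 (3.52 ± 0.43), H2-Q7 (3.73 ± 0.29), H2-K1 (1.18 ± 0.18), H2-T22 (1.49 ± 0.30), H2-T23 (1.49 ± 0.28) and B2m (1.19 ± 0.21). Those not called were H2-Q4 (1.46 ± 0.39), Tap1 (1.26 ± 0.31), Nlrc5 (1.49 ± 0.36) and H2-D1 (0.65 ± 0.18). The count of called genes was 3 without 5-day PD-1+ replicate 3 and 3 without 10-day PD-1- replicate 1. It was 10 with library totals and 10 with no filter on low counts. With each of the 8 libraries left out in turn, H2-Q6, H2-Q7 and H2-K1 kept their call in 8 of 8 fits, B2m in 6, H2-T23 in 5 and H2-T22 in 2.

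Between ages within PD-1+ cells, all 10 were higher at 10 than at 5 days and 9 were called, where 14.4% of all tested genes were called, 7.39% higher and 6.98% lower. That count was 4 without 5-day PD-1+ replicate 3, 4 without 10-day PD-1+ replicate 1 and 5 without both 5-day replicate 3 libraries. Within PD-1- cells edgeR called 0 of the 10 between ages, where 0.27% of all tested genes were called, 0.148% higher and 0.122% lower. There 3 of the 10 were higher at 10 days and 7 were lower, with a median of -0.24. By an unadjusted p under 0.05 edgeR counted 6 of them and 10.6% of all tested genes. DESeq2 called 3 of them and 0.92% of all the genes it gave an adjusted p. Over both ages together, 3 of the 10 were called higher in PD-1+ cells, H2-Q6 (2.84 ± 0.83), H2-D1 (0.82 ± 0.15) and B2m (0.68 ± 0.23), where 41.4% of all tested genes were called, 21.9% higher and 19.6% lower. That count was 6 without 5-day PD-1- replicate 2, and 1 with any of the 10-day libraries left out in turn.

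**Figure D3:**
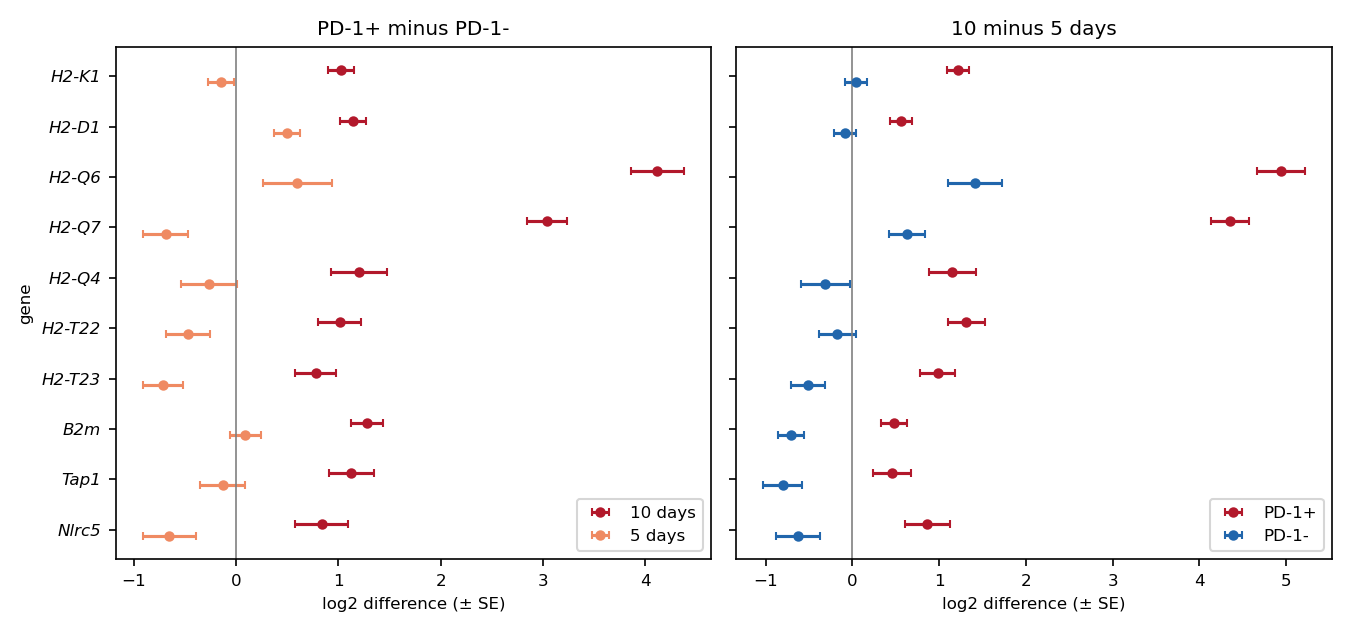
Log2 differences ± standard error (x axis) of the 10 genes down the page, between PD-1+ and PD-1- cells at 10 and 5 days (left) and between 10 and 5 days in PD-1+ and PD-1- cells (right), 2 libraries per group. The 10-day PD-1 differences run from 0.78 to 4.12, and the 5-day ones lie between -0.72 and 0.60.

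Levels of different genes were set against each other per kilobase of merged exons. All exon bases were used, those in 25-base words shared with other genes included. Lost or split reads may thus change the order, above all for H2-T22, H2-Q4 and H2-Q6. Only 28.0, 39.7 and 40.0% of their words were found in no other gene. How far the order depends on such reads was not tested. In 10-day PD-1+ cells B2m was the highest at 6462 ± 1309 CPM per kb (SD, n = 2), followed by H2-K1 at 2890 ± 275 and H2-D1 at 2449 ± 344 CPM per kb. H2-T23 followed at 262 ± 59.7 CPM per kb and overlapped H2-Q6 at 223 ± 24.7 CPM per kb. Below them came Tap1 (147 ± 18.4 CPM per kb), H2-Q7 (111 ± 24.7), H2-T22 (68.5 ± 7.24), H2-Q4 (36.1 ± 4.97) and Nlrc5 (32.8 ± 0.28), of which the last pair overlapped. In 10-day PD-1- cells the order was B2m (2665 ± 398 CPM per kb), H2-K1 (1421 ± 1.62), H2-D1 (1108 ± 22.3), H2-T23 (153 ± 15.4), Tap1 (67.3 ± 2.10), H2-T22 (33.9 ± 0.57), Nlrc5 (18.3 ± 0.92), H2-Q4 (16.1 ± 6.59), H2-Q7 (13.5 ± 0.47) and H2-Q6 (13.5 ± 6.53), where the last 4 overlapped their neighbours. In 5-day PD-1+ cells B2m (4623 ± 630 CPM per kb) was followed by H2-D1 (1658 ± 164), which stood above H2-K1 (1239 ± 179), and by H2-T23 (133 ± 22.2) and Tap1 (107 ± 16.3), which overlapped. Below them were H2-T22 (27.6 ± 2.18), Nlrc5 (18.0 ± 4.01) and H2-Q4 (16.2 ± 0.59), the last pair overlapping, and the lowest were H2-Q6 (7.23 ± 0.46) and H2-Q7 (5.41 ± 0.21). In 5-day PD-1- cells the order was B2m (4343 ± 20.8 CPM per kb), H2-K1 (1378 ± 117), H2-D1 (1173 ± 79.0), H2-T23 (218 ± 52.2), Tap1 (117 ± 42.9), H2-T22 (37.9 ± 13.9), Nlrc5 (28.1 ± 12), H2-Q4 (19.6 ± 2.29), H2-Q7 (8.65 ± 1.31) and H2-Q6 (4.84 ± 0.47), where H2-T22, Nlrc5 and H2-Q4 overlapped their neighbours. By this measure H2-Q6 took rank 5 of the 10 in 10-day PD-1+ cells and stood at or near the bottom in the other 3 groups.

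Among 12 other genes of class I assembly and peptide supply, edgeR called 7 higher and 0 lower in PD-1+ cells at 10 days, and 4 higher and 0 lower at 5 days. Of all tested genes 29.3% were called at 10 days and 34.3% at 5 days, in both directions together. The 7 were the proteasome and activator genes Psmb8, Psmb9, Psmb10, Psme1 and Psme2, with Tap2 and Tapbpl, and the 4 were Psmb8 and the chaperones Calr, Canx and Pdia3. Without 10-day PD-1- replicate 1 the 10-day count was 4. Psmb8, a catalytic subunit of the immunoproteasome, had 917 and 802 CPM in the 10-day PD-1+ libraries, 285 and 352 CPM in the 10-day PD-1- libraries, 1250 and 945 CPM in the 5-day PD-1+ libraries and 612 and 493 CPM in the 5-day PD-1- libraries. PD-1+ libraries were the higher ones at each age, and the difference over both ages was 1.21 ± 0.15 (edgeR adjusted p = 1.93e-05). Over both ages the proteasome activator Psme2 (0.72 ± 0.16, edgeR adjusted p = 0.00251) and Tapbpl, a peptide editor (1.09 ± 0.24, edgeR adjusted p = 0.00343), were also higher. Between ages in PD-1+ cells the 12 genes had a median of -0.36, against 1.07 for the 10 genes. Of the 12, 2 were called higher and 3 lower at 10 days there, where 7.39% of all tested genes were higher and 6.98% lower. The 3 lower were Calr, Canx and Pdia3, which fold and hold the heavy chain before peptide loading. Canx and Pdia3 were picked after their values had been seen. Calr had 375 and 334 CPM in the 10-day PD-1+ libraries, 295 and 256 CPM in the 10-day PD-1- libraries, 730 and 574 CPM in the 5-day PD-1+ libraries and 302 and 259 CPM in the 5-day PD-1- libraries. Its highest libraries were the 5-day PD-1+ ones, and in PD-1+ cells it was lower at 10 than at 5 days by -0.88 ± 0.16 (edgeR adjusted p = 0.00152). Canx (-0.87 ± 0.13) and Pdia3 (-0.82 ± 0.14) were also lower at 10 days there. Both had a negative interaction, of -1.05 ± 0.19 for Canx and -0.89 ± 0.20 for Pdia3. Without 5-day PD-1+ replicate 2, 0 of the 12 were called in the interaction. The 3 chaperones serve the folding of many other glycoproteins too.

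Among 14 tested genes for factors that act on class I promoters, edgeR called 3 higher and 0 lower in PD-1+ cells at 10 days, and 3 higher and 5 lower at 5 days. Of all tested genes 16.4% were higher and 12.9% lower at 10 days, and 17.6% higher and 16.7% lower at 5 days. Nfkb1, an NF-kB subunit, was higher in PD-1+ cells at both ages, with 363 and 401 CPM in the 10-day PD-1+ libraries, 89.1 and 85.2 CPM in the 10-day PD-1- libraries, 350 and 350 CPM in the 5-day PD-1+ libraries and 110 and 81.2 CPM in the 5-day PD-1- libraries. Its difference over both ages was 2.00 ± 0.14 (edgeR adjusted p = 5.17e-08), against 0.80 ± 0.16 for its partner Rela (edgeR adjusted p = 0.000888). It was 0.66 ± 0.16 for the NF-Y subunit Nfyb (edgeR adjusted p = 0.00481) and 0.55 ± 0.17 for Creb1 (edgeR adjusted p = 0.0197). Those 4 were the factors called higher over both ages, and 2 of the 14 were called lower. Of all tested genes 21.9% were higher and 19.6% lower over both ages. The 5 lower at 5 days were picked after their values had been seen: Stat2 (-2.19 ± 0.38), Irf1 (-0.54 ± 0.17), Irf2 (-1.31 ± 0.24) and Irf9 (-1.20 ± 0.21), which relay or carry out interferon responses, and Rfxank (-1.09 ± 0.33), a subunit of RFX. Stat2 had 57.7 and 52.0 CPM in the 10-day PD-1+ libraries, 60.9 and 66.3 CPM in the 10-day PD-1- libraries, 39.1 and 35.3 CPM in the 5-day PD-1+ libraries and 242 and 95.4 CPM in the 5-day PD-1- libraries. The 5-day PD-1- libraries were thus the high ones, above all replicate 2. That library was also the higher of its group for all of the 10 genes but H2-Q4 and H2-Q6, by little for B2m. Without that library, 1 of the 14 was called higher and 4 were called lower at 5 days, and without either 5-day PD-1+ library 3 were called lower.

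**Figure D4:**
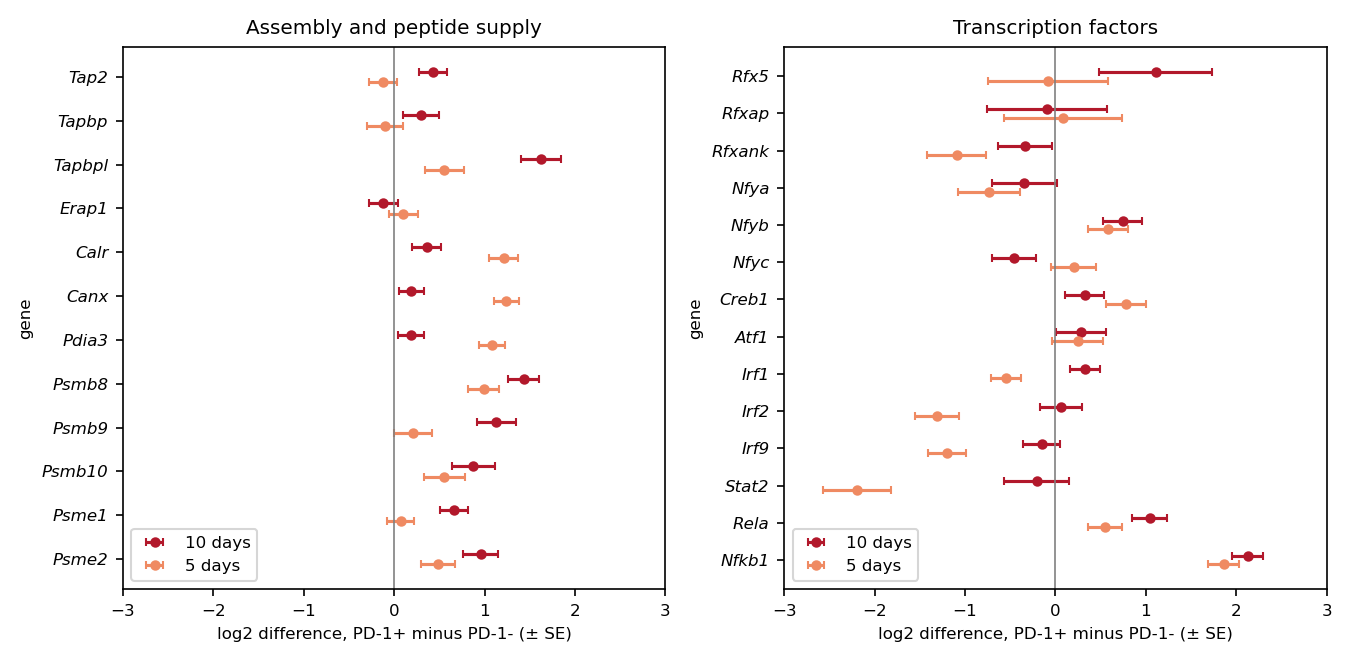
Log2 differences between PD-1+ and PD-1- cells ± standard error (x axis) at 10 and 5 days for the 12 genes of class I assembly and peptide supply (left) and the 14 tested genes for factors acting on class I promoters (right), down the page, 2 libraries per group. Nfkb1 is near 2 on the log2 scale at both ages, and Stat2 is at -0.21 at 10 days and -2.19 at 5 days.

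In the interferon signalling list, 2 of 8 genes were called higher and 2 lower in PD-1+ cells over both ages, shares near the 21.9% higher and 19.6% lower of all tested genes. Ifngr2, the signalling chain of the receptor for interferon-gamma, had 0.7 and 1.8 CPM in the 10-day PD-1+ libraries, 102 and 82.6 CPM in the 10-day PD-1- libraries, 6.7 and 9.5 CPM in the 5-day PD-1+ libraries and 105 and 169 CPM in the 5-day PD-1- libraries. It was low in all 4 PD-1+ libraries, by -4.80 ± 0.38 over both ages (edgeR adjusted p = 1.43e-06). The kinase Jak1 was lower too (-0.83 ± 0.12, edgeR adjusted p = 7.33e-05), while Tyk2 (0.94 ± 0.16, edgeR adjusted p = 0.000346) and Jak2 (0.87 ± 0.16, edgeR adjusted p = 0.00046) were higher.

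Of 17 other class I and class I-like genes, 9 were tested, and over both ages edgeR called 3 higher and 2 lower in PD-1+ cells, where 41.4% of all tested genes were called. Cd1d1, which presents lipids to NKT cells, was lower by -1.57 ± 0.22 (edgeR adjusted p = 4.76e-05), and H2-T24 by -1.10 ± 0.25 (edgeR adjusted p = 0.00239). H2-Q2 was higher by 1.40 ± 0.33 (edgeR adjusted p = 0.00362). For H2-Q10 the counts were low, and 27.4% of the 25-base words of H2-Q7 are also found in it. Reads of H2-Q7 may thus be among the counts given for H2-Q10, which was not tested. H2-Q10, which encodes a class I molecule secreted by the liver, had 39 and 35 counts in the 10-day PD-1+ libraries, 1 and 0 in the 10-day PD-1- libraries, 6 and 24 in the 5-day PD-1+ libraries and 9 and 2 in the 5-day PD-1- libraries, a difference of 3.04 ± 0.72 over both ages (edgeR adjusted p = 0.00402). H2-Q5, picked after its values had been seen and sharing words with both H2-Q6 and H2-Q7, had 161 and 125 counts in the 10-day PD-1+ libraries, 7 and 14 in the 10-day PD-1- libraries, 6 and 10 in the 5-day PD-1+ libraries and 5 and 7 in the 5-day PD-1- libraries. It was higher at 10 than at 5 days in PD-1+ cells by 3.66 ± 0.53. H2-T10 shares words with H2-T22 and was also picked after its values had been seen. H2-T10 was higher at 10 than at 5 days in PD-1+ cells by 1.62 ± 0.27.

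Few receptors of class I were measured, as 4 of 8 listed genes were tested. Klrc1, the NKG2A chain of the receptor for the H2-T23 product, had 126 and 37 counts in the 10-day PD-1+ libraries, 10 and 1 in the 10-day PD-1- libraries, 1 and 10 in the 5-day PD-1+ libraries and 0 and 1 in the 5-day PD-1- libraries. It was high in the 10-day PD-1+ libraries, and over both ages it was higher in PD-1+ cells by 3.62 ± 0.75 (edgeR adjusted p = 0.00184). Cd8b1, a chain of the CD8 co-receptor, was lower by -1.92 ± 0.38 (edgeR adjusted p = 0.00134). Cd8a differed by 0.62 and Klrd1, the CD94 chain, by -0.08, neither called.

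By the root mean square difference of centred log2 CPM over the 8 libraries, the closest pairs among the 10 genes were H2-T23 and Nlrc5 (0.17), H2-K1 and H2-T22 (0.18) and B2m and Tap1 (0.23). Outside the 10, the genes nearest to Nlrc5 among 10222 were Pard6a (0.19), Agfg1 (0.23), Rnaset2a (0.23), N4bp1 (0.23) and Cbx6 (0.24). The genes nearest to H2-K1 were Itm2c (0.14), Tspan3 (0.16), Fyn (0.18), Cd4 (0.18) and Gimap4 (0.18). Such nearness over 8 libraries in 4 groups is a description, and the libraries share their scaling.

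Markers of the sorted cells and of other cells moved with some of these results. The 5 CD4 T cell markers summed to 5106 to 6072 CPM in the 10-day PD-1+ libraries, 3747 to 3898 CPM in the 10-day PD-1- libraries, 3497 to 3782 CPM in the 5-day PD-1+ libraries and 3509 to 3901 CPM in the 5-day PD-1- libraries. The 11 markers of B and dendritic cells, which carry much class I, summed to 91.7 to 122 CPM in the 10-day PD-1+ libraries, 61.1 to 64.4 CPM in the 10-day PD-1- libraries, 63.3 to 80.2 CPM in the 5-day PD-1+ libraries and 57.4 to 139 CPM in the 5-day PD-1- libraries. H2-K1 alone was 4315 CPM higher in PD-1+ than in PD-1- libraries at 10 days. Marker sums do not give the class I RNA of the cells they mark, so they cannot be set against that value. Macrophage markers summed to 27.4 to 29.9 CPM in the 10-day PD-1+ libraries, 2.60 to 3.56 CPM in the 10-day PD-1- libraries, 31.4 to 32.9 CPM in the 5-day PD-1+ libraries and 12.3 to 43.7 CPM in the 5-day PD-1- libraries, with Adgre1, Clec4f, Cd5l, Lyz2 and C1qa at 0 in the 10-day PD-1- libraries. Hepatocyte markers summed to 59.0 to 68.7 CPM in the 10-day PD-1+ libraries, 15.9 to 18.2 CPM in the 10-day PD-1- libraries, 27.7 to 78.2 CPM in the 5-day PD-1+ libraries and 10.8 to 19.8 CPM in the 5-day PD-1- libraries. The endothelial sum, nearly all of it Pecam1, a gene that T cells also express, was 93.7 to 133 CPM in the 10-day PD-1+ libraries, 295 to 301 CPM in the 10-day PD-1- libraries, 126 to 145 CPM in the 5-day PD-1+ libraries and 308 to 378 CPM in the 5-day PD-1- libraries. The part of other cells in the class I results, H2-Q10 included, was not tested.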

How the data were processed

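The authors deposited raw counts in 1 table, with a row for each gene symbol and a column for each library. Per the labels' protocols, polyadenylated RNA of double-sorted cells was reverse transcribed from an anchored oligo(dT), amplified, tagmented and sequenced as paired reads of 25 bases, and per the submitters' processing notes STAR 2.5.4 and featureCounts were used with mm10. Which annotation and strand setting were used, and whether reads with several matches were counted, is not given in the sources used here. Genes were kept with filterByExpr (11490 of 52997), scaled by TMM and fitted by robust quasi-likelihood in edgeR 4.0.16 (R 4.3.3), with age and PD-1 as additive terms for both ages and a model of the 4 groups for all else. The Benjamini-Hochberg adjustment was made over all 11490 genes. The standard error is the log2 difference over the square root of F. Alternatives were other scalings, no filter, DESeq2 1.42.0, each library left out and a replicate block. The fits were also run on counts simulated with the spread estimated from these data and with planted changes. The outcome is not given here and is not used as support. Promoters were aligned with Biopython 1.88.

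The 10 genes and the gene lists were chosen with earlier results of these data known. The p-values printed for list genes are thus descriptions and give no independent evidence. Named genes were the 10, from each pathway list up to 4 with the smallest p over both ages, and the 5 nearest to Nlrc5 and to H2-K1, leaving out receptor segments and unnamed models. A gene of 1 list is not reported here. Coordinates are from GENCODE M21 on GRCm38 and upstream sequences from RefSeq on GRCm38.p6. Replicates of a group differed by more than counting error, with a chi-square of 4.00 to 8.61 per degree of freedom.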

Additional observations from a re-analysis of the deposited data

Results flagged for a closer look

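For 6 of the 10 genes the difference between PD-1+ and PD-1- cells was not the same at 10 and 5 days, by the interaction term of the edgeR model, and each was more positive at 10 days. The 10-day minus 5-day difference was 3.73 for H2-Q7, 3.52 for H2-Q6, 1.49 for H2-T23, 1.49 for H2-T22, 1.19 for B2m and 1.18 for H2-K1 on the log2 scale. Since the genes were chosen with these values known, this describes the libraries and gives no independent evidence.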

How the results depend on the processing

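Of 934 values of the 10 genes recomputed under other settings, 800 kept their direction and side of the threshold, 65 were no longer called, 50 became called and 19 changed sign. None of the sign changes was in the 10-day PD-1 difference, the 10-day minus 5-day difference in PD-1+ cells or the interaction. With library totals in place of composition factors, 1 of the 10 was called over both ages, 5 at 5 days and 10 in the interaction. The median of all genes then moved to -0.26 at 5 days, 0.24 between ages in PD-1+ cells and 0.17 in the interaction, and 1393 of 1842 called genes were higher at 10 days in PD-1+ cells, against 849 of 1651 otherwise. Without the filter, 3 of the 10 were called between ages in PD-1- cells and 10 in the interaction, and DESeq2 called 3 between ages in PD-1- cells. Without both 5-day replicate 3 libraries, a choice made after seeing the data, 5 were called between ages in PD-1+ cells and 2 in PD-1- cells.

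Replicate numbers were not shown to pair the libraries: deviations of same-numbered libraries correlated at 0.09 at 5 days and 0.11 at 10 days. With 2 libraries per group, both replicates of an age give the same correlation. It therefore cannot show whether or not the libraries were paired. The sexes at 5 days do follow the number, with both replicate 3 libraries male and both replicate 2 libraries female. The labels name no animal. With the replicate block, 1 of the 10 was called over both ages and 10 in the interaction. Leaving out each library in turn gave 8 to 10 called at 10 days, 1 to 5 at 5 days, 1 to 6 over both ages, 4 to 9 between ages in PD-1+ cells, 0 to 2 in PD-1- cells and 3 to 8 in the interaction. Over all genes, calls between ages in PD-1- cells numbered 31, against 180 without the filter, 75 with DESeq2 and 72 without the 5-day replicate 3 pair. Interaction calls numbered 244, against 469 without the filter, 483 with the block and 118 without that pair. Without that pair calls were 943 in place of 1651 between ages in PD-1+ cells and 2426 in place of 3936 at 5 days.

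Over both ages H2-T23 was -0.053 with upper-quartile scaling and -0.13 with library totals, and Nlrc5 was -0.061 with library totals. At 5 days B2m was -0.14 with library totals. The sum of H2-Q6 and H2-Q7 was -0.31 at 5 days, where H2-Q6 alone was 0.60. H2-K1 between ages in PD-1- cells was -0.027 without the 5-day replicate 3 pair. Leaving out 1 library gave ranges of -0.20 to 0.28 for H2-T23 and -0.10 to 0.45 for Nlrc5 over both ages. At 5 days they were -0.056 to 0.22 for B2m and -0.45 to 0.30 for Tap1. Between ages in PD-1- cells they were -0.76 to 0.093 for H2-Q4, -0.027 to 0.13 for H2-K1 and -0.48 to 0.27 for H2-T22. The cause of these changes was not tested. Low counts limit H2-Q6, with 19 to 58 counts in each of the 6 libraries other than 10-day PD-1+.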
